A study of Homo sapiens with 3 samples.

Results

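Centriole duplication and the centrosome scaffold were followed through 10 genes (STIL, SASS6, CEP152, CEP135, CEP63, PCNT, CDK5RAP2, NEDD1, CEP192 and CEP250), which were taken by symbol from a table of 14949 genes. All 10 were listed. The table holds RNA sequencing of 3 libraries of MIAPaCa-2, an established cell line from a human pancreatic cancer. The sh-CTL library came from cells with a control short hairpin and no treatment. The sh-METTL3 library came from untreated cells with a hairpin against METTL3, the subunit that does the catalysis in the m6A (N6-methyladenosine) writer complex of RNA. The third library, sh-CTL + PLK1i, came from sh-CTL cells given 80 nM of NMS-P937, an inhibitor of the mitotic kinase PLK1, for 24 h. The 3 libraries therefore share 1 parental line, and the treated library shares its hairpin with sh-CTL. A vehicle for the untreated sh-CTL library is not given in the sources used here, nor is the number of hairpins or clones behind sh-METTL3. Each group held 1 library, so no difference had a replicate check, and no p-value was computed.

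A centrosome is built around a pair of centrioles. New centrioles arise beside old ones once per cell cycle, when the kinase PLK4 is brought to the old centriole by CEP152 and CEP192, and STIL and SASS6 (SAS-6) then lay down the cartwheel that gives the organelle its symmetry. Around the centrioles lies the pericentriolar material, in which PCNT (pericentrin), CDK5RAP2 and CEP192 form a scaffold and NEDD1 recruits the gamma-tubulin rings from which microtubules grow. The scaffold expands before mitosis under the control of PLK1. CEP250 (C-Nap1) starts the linker that ties 2 centrosomes together until the kinase NEK2 dissolves it. Changes in STIL, SASS6, CEP152, CEP135, CEP63 and CDK5RAP2 cause inherited microcephaly.

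Reads in listed genes came to 37449259, 46944920 and 47727541 in the order sh-CTL, sh-METTL3, sh-CTL + PLK1i. Where 3 values of a gene stand together without names, they are in this order. Read counts were divided by each library's size factor, giving normalized counts, and differences are log2 ratios of these counts with 1 added. Every interval is a 95% exact interval of a ratio or a count and covers counting error alone. A gene is called higher or lower where it differs by at least 1.2-fold (0.26 on the log2 scale) and its interval leaves out 0. This limit was chosen after an earlier look at these data, in which no gene of a spindle list passed 2-fold. METTL3 stood at 3939, 1651 and 3888 normalized counts in sh-CTL, sh-METTL3 and sh-CTL + PLK1i, and PLK1 at 8058, 5226 and 8515. Of the epithelial markers looked up, KRT8, KRT18 and KRT19 were listed, while EPCAM, CDH1 and KRT7 were not among the listed genes. KRT18 and KRT19 were called higher and VIM, a mesenchymal marker, lower in sh-METTL3 (log2 differences 0.27, 0.43 and -0.40). ZEB1, the other listed mesenchymal marker, went the opposite way to VIM in sh-METTL3 (0.25, interval 0.18 to 0.32), short of 1.2-fold. With PLK1i ZEB1 was called higher (0.39). Of 9 blood, endothelial and fibroblast markers, COL1A1 and COL3A1 were listed. Their summed level was 654 normalized counts in sh-CTL, 48.2 in sh-METTL3 and 412 with PLK1i. In bulk RNA, fewer cells of a kind and less RNA per cell cannot be told apart, and what part cells of another kind play in the differences was not tested.

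Of the 10 genes, 7 stayed within 1.2-fold of sh-CTL in both other libraries. In sh-METTL3, NEDD1 was called higher and no gene was called lower. In sh-CTL + PLK1i, STIL was called higher and SASS6 lower, so that the RNAs of the pair that builds the cartwheel lay on opposite sides of sh-CTL. Among all 14949 genes, 14.5% were called higher and 14.5% lower in sh-METTL3, and 8.41% were called higher and 9.52% lower in sh-CTL + PLK1i. Over the 10782 genes averaging at least 200 normalized counts, as all 10 genes do, the shares were 12.2% and 14.5%, and 7.36% and 8.27%. The counts of 1 and 0 of 10 genes, and of 1 and 1 of 10, are therefore near what the whole table shows. The intervals of NEDD1, STIL and SASS6 in these comparisons each reach inside 1.2-fold, so a call does not set them apart from genes just short of it.

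**Figure D1:**
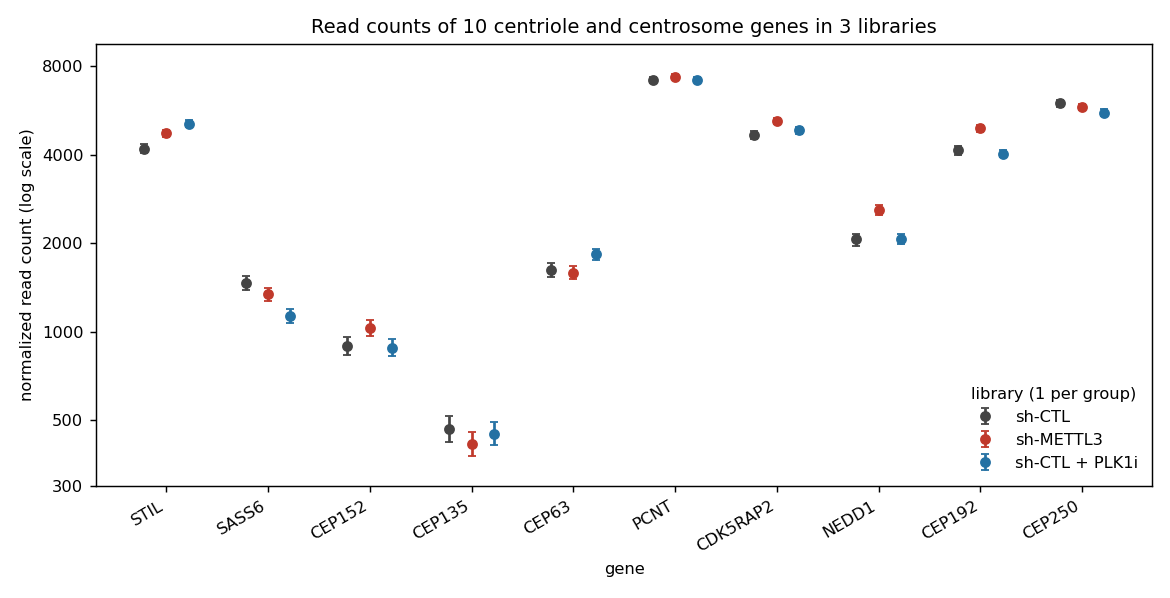
Normalized read counts (vertical axis, log scale) of the 10 genes in the 3 libraries, with 1 point per library and bars for the 95% exact counting interval. PCNT stands highest, from 7166 to 7358, and CEP135 lowest, from 416 to 468, and for most genes the 3 points lie close together.

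The promoters of the 4 genes with the largest differences are shown, so that the letters around each transcription start can be read beside the expression values. They come from RefSeq on the build GRCh38.p14 and run from 250 bases before the start to 30 after it, written 5′ to 3′ on the gene's own strand. STIL lies at chr1:47314118-47314397 and SASS6 at chr1:100132901-100133180, both on the minus strand. NEDD1 (the first of 2 windows) lies at chr12:96907007-96907286 and CEP192 at chr18:12991112-12991391, both on the plus strand. Capitals mark 3 motifs of cell cycle promoters, searched on both strands: the CCAAT box (CCAAT), the cell cycle homology region CHR (the letters TTTGAA, or with the middle changed TTTAAA) and the E2F core (the letters TTCCCGC, and with either of its middle letters changed TTCGCGC, also spelled TTGCCGC, and with both changed TTGGCGC).
STIL: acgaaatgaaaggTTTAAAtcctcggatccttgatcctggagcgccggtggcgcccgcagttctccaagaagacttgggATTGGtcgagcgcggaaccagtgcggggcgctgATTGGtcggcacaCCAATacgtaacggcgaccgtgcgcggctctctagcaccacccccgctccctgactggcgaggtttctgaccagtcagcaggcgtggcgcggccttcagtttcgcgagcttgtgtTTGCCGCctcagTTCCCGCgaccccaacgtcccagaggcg
SASS6: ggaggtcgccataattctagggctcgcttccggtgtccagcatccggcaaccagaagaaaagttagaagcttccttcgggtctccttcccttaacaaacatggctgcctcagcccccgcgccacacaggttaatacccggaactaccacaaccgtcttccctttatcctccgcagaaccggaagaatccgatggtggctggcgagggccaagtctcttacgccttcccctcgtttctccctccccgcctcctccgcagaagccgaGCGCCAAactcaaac
NEDD1: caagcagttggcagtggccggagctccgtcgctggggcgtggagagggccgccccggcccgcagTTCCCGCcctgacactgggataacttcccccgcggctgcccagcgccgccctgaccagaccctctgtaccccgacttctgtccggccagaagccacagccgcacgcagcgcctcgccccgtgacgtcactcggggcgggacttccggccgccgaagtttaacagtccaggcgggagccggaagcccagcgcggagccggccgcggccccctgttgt
CEP192: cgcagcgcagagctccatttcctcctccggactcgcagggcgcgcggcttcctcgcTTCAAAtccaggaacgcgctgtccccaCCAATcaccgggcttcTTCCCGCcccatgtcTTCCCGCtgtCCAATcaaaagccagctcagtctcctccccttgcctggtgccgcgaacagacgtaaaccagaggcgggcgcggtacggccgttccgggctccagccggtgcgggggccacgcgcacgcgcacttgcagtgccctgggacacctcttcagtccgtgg

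The STIL promoter held all 3 motifs, with 3 CCAAT boxes and 2 E2F cores. Its first E2F core began 10 bases before the start. SASS6 held a single E2F core, which began at base 16 of the transcript on the opposite strand, and neither of the other motifs. NEDD1 had 1 E2F core in the window shown, and CEP192 had 2 CCAAT boxes, 1 CHR and 2 E2F cores in the letters shown. Of the 10 genes, 9 had a promoter of 300 bases (250 before to 50 after the start) in the RefSeq table, in 12 windows. CEP250 is not covered by it. An E2F core was found in 7 of these 12 windows, from 6 genes, against 13.0% of all 35116 windows and 19.3% of the 15173 windows of listed genes. A CCAAT box was found in 5 of 12 windows, against 34.6% of all windows and 34.8% of those of listed genes. A CHR was also found in 5 of 12, against 24.0% and 16.8%. The motifs can overlap one another, and a match is a run of letters and no measurement of binding.

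STIL, which lies at chr1:47715811-47780564 on the build GRCh37, carries the PLK4-activated step of cartwheel assembly. Its level was 4191 normalized counts in sh-CTL, 4727 in sh-METTL3 and 5098 with PLK1i. Both other libraries were above sh-CTL, and the treated one stood highest. In sh-CTL + PLK1i, STIL was higher by 0.28 on the log2 scale (interval 0.22 to 0.34), at 122% of its sh-CTL level. Over 10782 genes averaging at least 200 normalized counts, 6.26% were at least as far above sh-CTL. In sh-METTL3 the log2 difference was 0.17 (interval 0.11 to 0.24), short of 1.2-fold.

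SASS6 (chr1:100549119-100598511) encodes the self-assembling spoke of the cartwheel. It stood at 1463 normalized counts in sh-CTL, 1341 in sh-METTL3 and 1131 with PLK1i. The order was thus the reverse of that of STIL. In sh-CTL + PLK1i the log2 difference was -0.37 (interval -0.49 to -0.26), at 77.3% of the sh-CTL level, and 3.82% of genes with a mean of at least 200 lay as far below. In sh-METTL3 it was -0.13 (interval -0.24 to -0.02).

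Because STIL and SASS6 act in the same structure, the ratio of their reads within a library was also taken, a measure into which no size factor enters. Its log2 change follows from the differences of both genes given above and adds no new evidence to them. The same holds for the other 8 pairs. STIL gave 2.86 reads for each SASS6 read in sh-CTL, 3.52 in sh-METTL3 and 4.51 with PLK1i. The log2 change of this ratio was 0.65 in sh-CTL + PLK1i (interval 0.52 to 0.78) and 0.30 in sh-METTL3 (interval 0.17 to 0.43). The ratio in sh-METTL3 was in turn below that in sh-CTL + PLK1i, by a log2 change of -0.35 (interval -0.48 to -0.23). Per kb of merged exon, STIL was above SASS6 by a ratio of 1.45, 1.79 and 2.29 in the same order of libraries. The pair, like the other 8 pairs compared, was chosen with the genes' values known.

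CEP135 (chr4:56815037-56899527) links the cartwheel to the microtubule wall of the centriole. Its level was 468 normalized counts in sh-CTL, 416 in sh-METTL3 and 451 with PLK1i. These were the lowest counts of the 10 genes, and both intervals span 0 (from -0.37 to 0.03 in sh-METTL3, and with PLK1i from -0.25 to 0.14), so no difference was detectable at this depth. Its reads per SASS6 read were 0.320, 0.310 and 0.399 in the same order. The log2 change was -0.04 in sh-METTL3 (interval -0.27 to 0.19) and 0.32 with PLK1i (interval 0.09 to 0.55). Most of the latter is the -0.37 of SASS6 given above.

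CEP152 (chr15:49005125-49103343) and CEP63 (chr3:134204541-134306631) form a ring around the old centriole on which PLK4 gathers. CEP152 stood at 893 normalized counts in sh-CTL, 1031 in sh-METTL3 and 884 with PLK1i, so that sh-METTL3 was the high library, by 0.21 (interval 0.07 to 0.34). CEP63 stood at 1619, 1590 and 1832, so that sh-CTL + PLK1i was the high library, by 0.18 (interval 0.08 to 0.28). Neither passed 1.2-fold. Their ratio moved in opposite directions: CEP152 gave 0.552 reads per CEP63 read in sh-CTL, 0.648 in sh-METTL3 (log2 change 0.23, interval 0.06 to 0.40) and 0.482 in sh-CTL + PLK1i (log2 change -0.19, interval -0.37 to -0.02). CEP63 shares 455 exon bases with ANAPC13 on the opposite strand and 2022 with a long noncoding RNA on its own strand. On their own strand, SASS6 shares 292 with a long noncoding RNA, PCNT 204 with a protein-coding gene and CEP250 427 with a noncoding RNA. With noncoding RNAs on the opposite strand, CEP152 shares 148 and 186 and CEP250 shares 222. The library kit keeps strand, but whether strand was used in counting is not given in the sources used here.

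PLK4, the kinase these proteins gather, stood at 2017 normalized counts in sh-CTL, 1990 in sh-METTL3 and 2082 with PLK1i, with log2 differences of -0.02 and 0.05. STIL reads per PLK4 read were 2.08, 2.38 and 2.45. The log2 change of this ratio was 0.19 in sh-METTL3 (interval 0.08 to 0.30) and 0.24 in sh-CTL + PLK1i (interval 0.13 to 0.35).

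NEDD1 (chr12:97301002-97347558) docks gamma-tubulin rings on the scaffold. It was at 2058 normalized counts in sh-CTL, 2597 in sh-METTL3 and 2070 with PLK1i. The sh-METTL3 library stood apart, and the other two differed by less than counting error (0.01, interval -0.08 to 0.10). In sh-METTL3 the log2 difference was 0.34 (interval 0.25 to 0.42), at 126% of sh-CTL, the largest of the 10 genes in that comparison. In all, 8.63% of genes with a mean of at least 200 were as far above. TUBG1, which encodes gamma-tubulin itself, was at 7442, 7556 and 8077, with log2 differences of 0.02 and 0.12. TUBG1 and TUBG2 are near-identical, so how their reads were split is uncertain. NEDD1 reads per TUBG1 read were 0.277 in sh-CTL, 0.344 in sh-METTL3 (log2 change 0.31, interval 0.21 to 0.41) and 0.256 in sh-CTL + PLK1i (log2 change -0.11, interval -0.21 to -0.01).

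CEP192 (chr18:12991361-13125051) both recruits PLK4 and organizes the mitotic scaffold. Its 4135 normalized counts in sh-CTL compare with 4920 in sh-METTL3 and 4030 with PLK1i. In sh-METTL3 it was higher by 0.25 (interval 0.19 to 0.31), just inside the 1.2-fold limit. In sh-CTL + PLK1i the difference was -0.04 (interval -0.10 to 0.03).

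PCNT (chr21:47744038-47865682), the large coiled-coil scaffold protein, had 7166, 7358 and 7187 normalized counts, so that the 3 libraries lay within counting error of sh-CTL. Its differences from sh-CTL were 0.04 in sh-METTL3 (interval -0.01 to 0.09) and 0.00 in sh-CTL + PLK1i (interval -0.04 to 0.05). The latter came to 0.07 once a smooth dependence of the differences on GC content and length over all genes was taken out. CDK5RAP2 (chr9:123151153-123342448), which anchors and activates gamma-tubulin rings, stood at 4657, 5202 and 4838, with a log2 difference of 0.16 in sh-METTL3 (interval 0.10 to 0.22). Set against PCNT, whose reads served as a within-library reference, CEP192 had a log2 change of 0.21 in sh-METTL3 (interval 0.13 to 0.29) and CDK5RAP2 one of 0.12 (interval 0.05 to 0.20). In sh-CTL + PLK1i both ratios had intervals that span 0.

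CEP250 (chr20:34042985-34107108), the base of the linker, was at 5984 normalized counts in sh-CTL, 5801 in sh-METTL3 and 5550 with PLK1i. In sh-CTL + PLK1i its log2 difference was -0.11 (interval -0.16 to -0.05), and it came to -0.02 once the same dependence was taken out. The next protein of the linker is rootletin, encoded by CROCC, which had 1159, 1084 and 1110. The ratio of CEP250 to CROCC reads had intervals spanning 0 in both comparisons. NEK2, the kinase that dissolves the linker, was at 3812, 3978 and 3915.

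**Figure D2:**
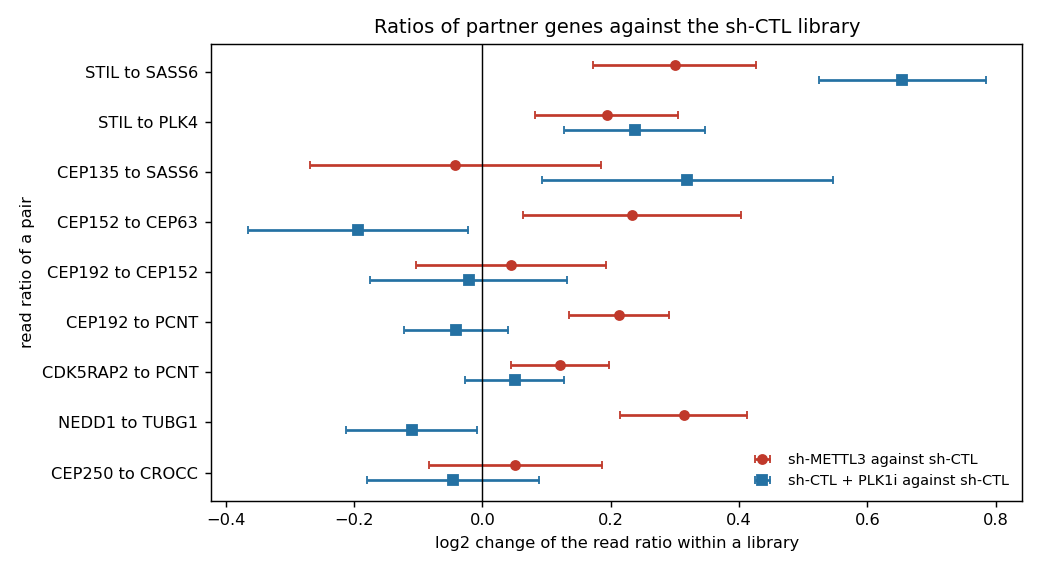
Log2 change of the read ratio of 9 gene pairs against sh-CTL (horizontal axis), with 95% exact counting intervals, in sh-METTL3 (circles) and sh-CTL + PLK1i (squares). STIL to SASS6 lies farthest from 0, at 0.65 in sh-CTL + PLK1i. Of the pairs whose intervals leave out 0 in both comparisons, NEDD1 to TUBG1 and CEP152 to CEP63 lie on opposite sides of 0.

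Counted over the 10 genes, the interval left out 0 for 6 in sh-METTL3 (STIL, CEP152, CDK5RAP2, NEDD1 and CEP192 above sh-CTL, SASS6 below) and for 4 in sh-CTL + PLK1i (STIL and CEP63 above, SASS6 and CEP250 below). The share over all genes was 55.2% and 45.9%, so these counts are close to those of the table. Over the 10782 genes averaging at least 200 normalized counts, as all 10 genes do, the shares were 63.2% and 54.4%. The median log2 difference of the 10 genes was 0.10 in sh-METTL3, and with PLK1i it was -0.01, against 0.00 over all genes in both. The 2 comparisons share the sh-CTL library, and counting error there enters both.

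The sh-METTL3 and sh-CTL + PLK1i libraries can be set against each other without sh-CTL. There NEDD1 was higher in sh-METTL3 by 0.33 and CEP192 by 0.29, and both were called higher. These 2 of 10 compare with 19.2% of all genes, and the 0 of 10 called lower with 18.9%. Among genes averaging at least 200 normalized counts the shares were 16.8% and 19.1%. Intervals left out 0 for 8 of 10 genes, against 64.5% of all genes and 72.5% of those averaging at least 200 normalized counts. SASS6 (0.25) and CEP152 (0.22) were also above sh-CTL + PLK1i, and CEP63 (-0.20) and STIL (-0.11) were below, each short of 1.2-fold.

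**Figure D3:**
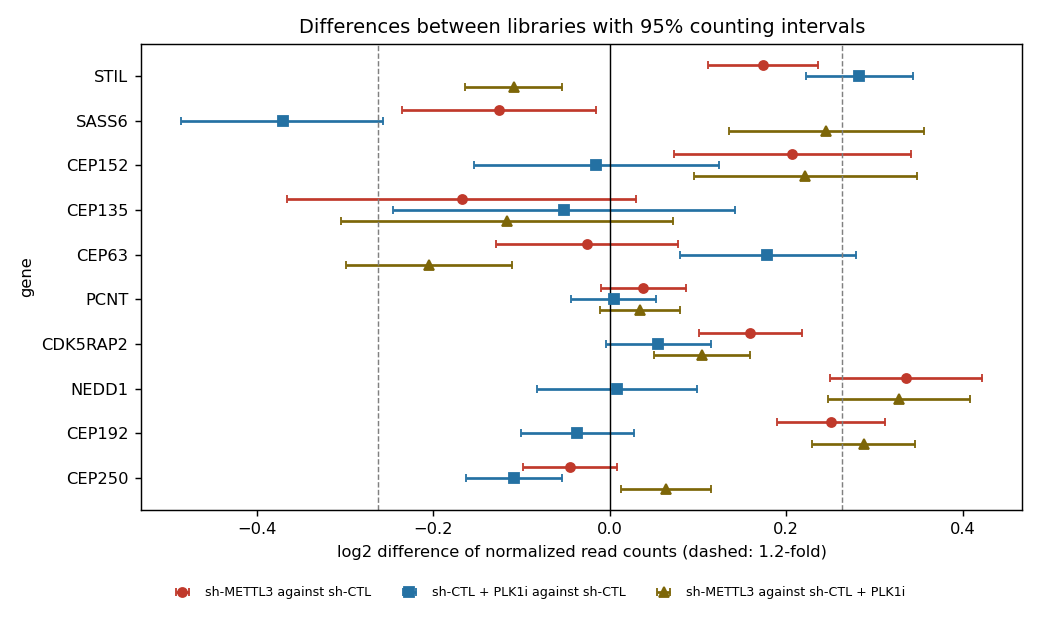
Log2 difference of normalized counts for the 10 genes (horizontal axis) in the 3 comparisons, with 95% exact counting intervals and dashed lines at 1.2-fold. STIL (0.28) and SASS6 (-0.37) lie outside the lines in sh-CTL + PLK1i, NEDD1 (0.34) in sh-METTL3, and NEDD1 and CEP192 in the direct comparison.

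Levels of different genes can be compared per kb of exon, here the merged exons of every annotated transcript. In sh-CTL the order was STIL with 536 normalized counts per kb, NEDD1 with 461, CEP192 with 418, PCNT with 409, SASS6 with 368, CEP250 with 302, CDK5RAP2 with 172, CEP152 with 109, CEP63 with 66.6 and CEP135 with 42.4. The counting intervals of CEP192 (404 to 432) and PCNT (399 to 420) overlap, so these neighbours in the order did not differ beyond counting error. All other neighbours had intervals apart in sh-CTL. In sh-METTL3 the genes stood in the same order, but the intervals of STIL (588 to 621) and NEDD1 (560.3 to 604) overlapped. With PLK1i, PCNT (410.5) and CEP192 (407) changed places with overlapping intervals, and those of SASS6 (269 to 301) and CEP250 (273 to 288) overlapped as well. CEP135 was last in each library. The length that is used matters: per kb of the longest transcript, PCNT had 669.8 in sh-CTL and stood next to STIL, and CDK5RAP2, with 435.5, stood above SASS6, with 368.

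In their medians the 10 genes differed from listed protein-coding genes in several features that the choice by symbol did not use. Their main transcripts had a median of 5688 bases and 26.5 exons, against 3328 bases and 9 exons over 12236 listed protein-coding genes. The coding region had a median of 1498 codons against 464. GC content had a median of 42.1% against 48.8%, with a range from 35.0% in SASS6 to 55.9% in PCNT. The letters GGACT, a common spelling of the m6A motif, occurred 1.02 times per kb (median), against 0.928 over protein-coding genes. STIL had 1.39 per kb and NEDD1, the gene called higher in sh-METTL3, had 0.498, the lowest of the 10. Methylation itself was not measured in these libraries.

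Genes beside each of the 10 on its chromosome were read as a local reference. Up to 12 listed genes on each side with a mean of at least 50 normalized counts were used. In sh-METTL3 the 24 neighbours of CEP192 had a median log2 difference of 0.28, and 14 of them were at or above CEP192 itself. Their quartiles were -0.15 and 0.41, and 16 of the 24 were above 0. The neighbours of CDK5RAP2 had a median of 0.15, with quartiles of 0.02 and 0.31, and 11 of 24 were at or above its 0.16. NEDD1 stood apart from its surroundings, which had a median of -0.02 with 2 of 24 neighbours at or above it. STIL lay among neighbours with a median of -0.09 and 4 of 24 at or above it. With 25 genes on each side that median was 0.06, and 12 of 50 were at or above STIL. The differences of CEP192 and CDK5RAP2 were near the medians of their neighbours, among which single genes varied widely. The chromosomes of CDK5RAP2 and CEP192 were among those on which an earlier analysis of these data found stretches that moved together in sh-METTL3. DNA copy number in the lines was not tested. In sh-CTL + PLK1i the medians of all 10 neighbourhoods lay between -0.05 and 0.02, and 1 of 24 neighbours each lay as far out as STIL, SASS6 or CEP63.

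**Figure D4:**
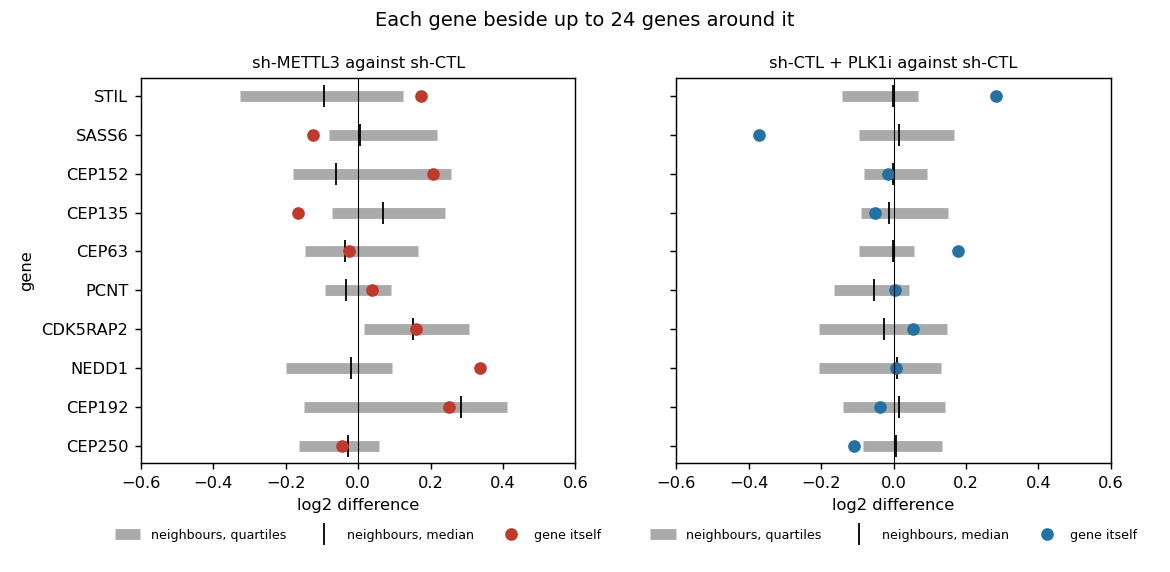
Log2 difference from sh-CTL of each gene (points) beside the median (ticks) and quartiles (grey bars) of up to 24 genes around it, for sh-METTL3 (left) and sh-CTL + PLK1i (right). At left the CEP192 point (0.25) lies by its neighbours' median (0.28) while NEDD1 (0.34) lies far above its own (-0.02); at right STIL and SASS6 lie outside their grey bars.

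Other genes of the same machinery were taken from lists by function. The shares called over all 14949 genes stand beside every list count below. They were 14.5% higher and 14.5% lower in sh-METTL3, and 8.41% higher and 9.52% lower in sh-CTL + PLK1i. Of 28 centriole assembly partners, 1 was called higher and none lower in sh-METTL3, and 2 were called higher and 3 lower in sh-CTL + PLK1i. TUBE1, which encodes epsilon-tubulin of the centriole wall, was called higher in both, at 435 normalized counts in sh-CTL, 549 in sh-METTL3 and 574 with PLK1i. CNTROB (centrobin), a protein of daughter centrioles, had 2804, 2847 and 3744 and was called higher in sh-CTL + PLK1i by 0.42. SPICE1, needed for duplication and spindle formation, had 609, 568 and 485. TEDC2, a partner of the delta and epsilon tubulins, had 629, 596 and 492, and WDR90, a protein of the centriole wall, had 156, 144 and 105. These 3 were called lower in sh-CTL + PLK1i. CENPJ (CPAP), which sets centriole length with STIL as its partner, was at 1006, 1119 and 1084 and was called in neither comparison.

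None of the 10 genes of the gamma-tubulin complex was called in either comparison with sh-CTL. Their log2 differences ran from -0.18 to 0.15 in sh-METTL3 and from -0.20 to 0.12 in sh-CTL + PLK1i. TUBGCP2, a core subunit, was at 5899, 6558 and 5130 normalized counts, so that sh-METTL3 was high and sh-CTL + PLK1i low. Differences from sh-CTL were 0.15, 0.09 and 0.12 in sh-METTL3 for TUBGCP3, TUBGCP4 and TUBGCP5, and -0.04 for TUBGCP6. In sh-CTL + PLK1i they were -0.05, -0.19, 0.02 and -0.14. Of 8 genes of augmin, which branches microtubules off existing ones, HAUS1 was called lower in sh-CTL + PLK1i (1986, 1888 and 1611). Of 6 linker genes, LRRC45 was called lower there as well (749, 641 and 592).

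Among 11 genes of centriole appendages, 1 was called higher and 2 lower in sh-METTL3. CEP83, which docks centrioles to the membrane, had 982, 1268 and 1083. CCDC68 had 3449, 2606 and 3495 and CCDC120, another subdistal appendage gene, had 111, 60.2 and 92.1. CEP164, of the distal appendages, was called higher in sh-CTL + PLK1i (4542, 4700 and 5550). Among 12 genes of satellites and other scaffold, 1 was called higher and 3 lower in sh-METTL3. TACC3, of the spindle, was the higher (6598, 8136 and 7397). CEP290, of satellites and the cilium base, had 1529, 1032 and 1457, with a log2 difference of -0.57. CCDC61 (194, 140 and 213) and ESPL1 (3990, 3179 and 3738), which encodes separase, the protease that frees centrioles for the next round, were also lower. PIBF1, of satellites, was called higher in sh-CTL + PLK1i (599, 606 and 757). PCM1, the core satellite protein, had 5469, 6487 and 6185, with a log2 difference of 0.25 in sh-METTL3, and AKAP9, an anchor related to PCNT, had 3869, 3302 and 3636. Neither passed 1.2-fold.

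Of 15 further microcephaly genes, MFSD2A and NCAPD3 were called lower in sh-METTL3. In sh-CTL + PLK1i WDR62 and MFSD2A were called higher and NCAPD2 lower. WDR62, a spindle pole protein, had 4373, 4398 and 5406 normalized counts, and MFSD2A, a lipid transporter, 589, 435 and 791. NCAPD2 and NCAPD3 encode condensin subunits. The first had 31123 counts in sh-CTL and 25211 in sh-CTL + PLK1i, and the second 9536 in sh-CTL and 7446 in sh-METTL3.

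**Figure D5:**
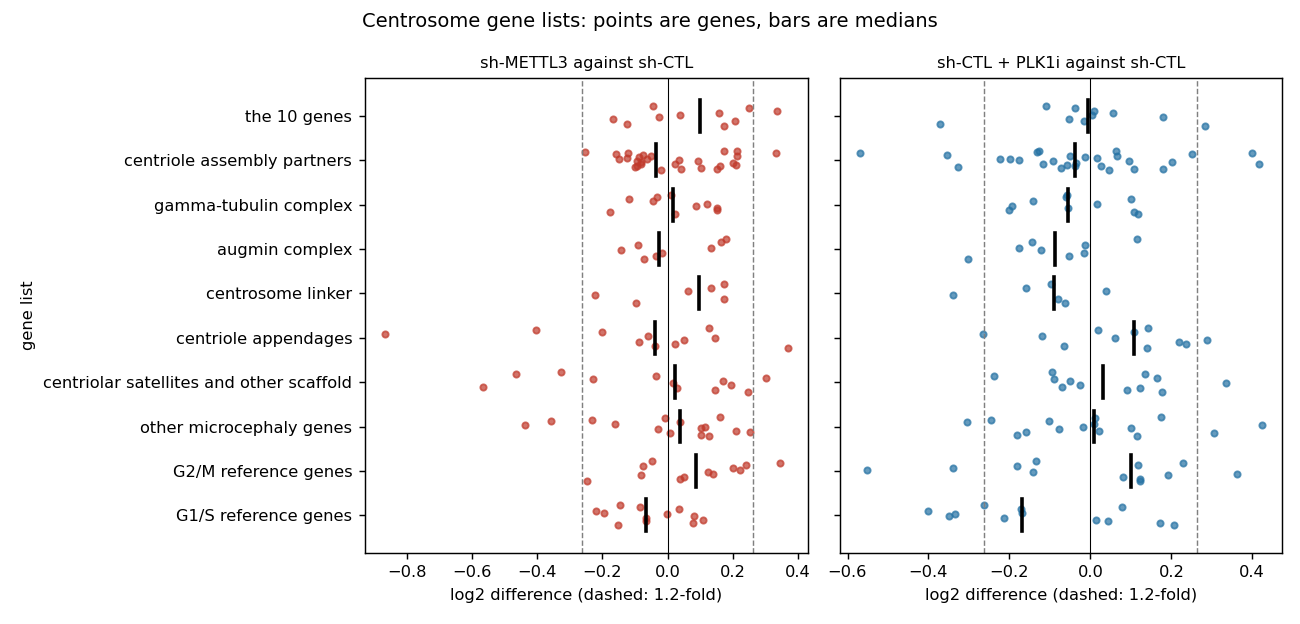
Log2 difference from sh-CTL (horizontal axis) of every listed gene of 10 gene lists, with 1 point per gene, black bars at list medians and dashed lines at 1.2-fold, for sh-METTL3 (left) and sh-CTL + PLK1i (right). List medians lie between -0.07 and 0.10 at left and between -0.17 and 0.11 at right.

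Some centrosome genes are expressed in step with the cell cycle, so genes of its stages are given beside them. Of 12 G2/M genes, KIF20A was called higher in sh-METTL3. In sh-CTL + PLK1i AURKA was called higher (9665 to 12415 normalized counts) and TOP2A (43126 to 29422) and UBE2C (7514 to 5942) lower. The list's median was 0.09 in sh-METTL3 and 0.10 with PLK1i. Of 12 G1/S genes, none was called in sh-METTL3, and MCM5, MCM6 and E2F1 were called lower in sh-CTL + PLK1i, where the list's median was -0.17. E2F1 went from 3202 to 2426. The stage of the cell cycle was not measured in these libraries. In a cell cycle assay of the same cell line, the paper reports that the PLK1 inhibitor induced G2/M arrest. It defined the dose and time of the treated library as optimal for inducing that arrest. What part the cell cycle stage plays in the differences of STIL and SASS6 was not tested.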

How the data were processed

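Total RNA of 3 MIAPaCa-2 cultures was sequenced after preparation with a stranded kit for polyadenylated RNA. The submitters' processing notes name hg19, STAR 2.7.10, RSEM 1.3.3 and FastQC 0.11.9, with no order or role. The authors deposited 1 table of log2 values for 14949 genes. Each value was the log2 of 4 plus a read count over a size factor. On the linear scale a single read made 1.17 units in sh-CTL, against 0.927 for the knockdown and 0.921 with PLK1i, and 100% of values under 2000 reads came out within 0.1 of a whole number. For genes with more reads the rounding of the deposited values leaves the last digits uncertain. RSEM estimates counts where reads fit several genes, and how whole numbers arose is not given in the sources used here.

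The column names, which abbreviate the sample titles, gave each column its sample and group. Differences were log2 ratios of normalized counts with a pseudocount of 1. Intervals were exact (Clopper-Pearson) for the share of reads in 1 of 2 libraries, and conditional odds ratios for pairs of genes. They cover counting error and not the spread between cultures. Positions and lengths came from GENCODE 44 mapped to GRCh37, and promoters from RefSeq on GRCh38.p14. Recovery and intervals were run on simulated counts with counting error alone and the same offset, rounding and size factors. That run could not bear on the spread between cultures or on how the deposited counts were made. Python 3 with numpy, pandas, scipy and matplotlib was used.

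The genes, the gene lists and the 1.2-fold limit were chosen with earlier results of these data known. The text names all 10 genes, METTL3 and PLK1, a set of partners by name, and list genes past 1.2-fold in a comparison with sh-CTL. Alternatives were other size factors, pseudocounts, thresholds and a filter, a trend with GC content and length taken out, other lengths and other numbers of neighbours.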

Additional observations from a re-analysis of the deposited data

How the results depend on the processing

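With 1 library a group there was no library to leave out, and no paired analysis was possible because each group held 1 library. Upper-quartile size factors, and taking out a trend with GC content and length, each brought CEP192 past 1.2-fold in sh-METTL3 (0.27 in both), so that 2 of the 10 genes were called there in place of 1. Upper-quartile factors also brought SASS6 past it in sh-METTL3 against sh-CTL + PLK1i (0.28). At a 2-fold limit 0 of the 10 genes were called in each of the 3 comparisons, where 3.34% of all genes were called higher and 2.86% lower in sh-METTL3, 1.2% and 1.0% with PLK1i, and 3.84% and 3.56% in the direct comparison. At a 1.1-fold limit 5 were called in sh-METTL3 (STIL, CEP152, CDK5RAP2, NEDD1 and CEP192), 3 in sh-CTL + PLK1i (STIL, SASS6 and CEP63) and 5 in sh-METTL3 against sh-CTL + PLK1i. The shares of all genes higher and lower at that limit were 21.8% and 22.8%, 16.6% and 17.2%, and 27.3% and 27.9%. The calls of NEDD1, STIL and SASS6 held under all alternatives run except the 2-fold limit. Median-of-ratios factors, total reads, pseudocounts of 0.5 and 4 and a minimum mean of 200 changed no count. The medians over the 10 genes have no counting interval of their own. In all 21 cases they moved by less than the median reach, to either side, of the 10 single-gene intervals, which is a wide allowance. No called difference changed sign. Taking out the trend moved 3 uncalled differences beyond their counting intervals: PCNT (0.07) and CEP250 (-0.02) with PLK1i, and CEP250 (0.00) in the direct comparison. Lengths of the longest transcript moved 27 of 30 levels per kb beyond their counting intervals. With 6 or 25 genes on each side the neighbours' medians stayed within the quartiles in 40 of 40 cases, also a wide allowance. For STIL in sh-METTL3 the neighbours' median changed sign with 25 genes on each side, from -0.09 to 0.06. Depth limits CEP135 most, with 401 to 490 reads a library.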
